A study of Homo sapiens with 4 samples.

Results

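T47D cells are a line from a human breast carcinoma with abundant progesterone receptor (PR), and R5020 is a synthetic progestin, that is a ligand that activates the PR. The 10 genes described here, *SOX4*, *SOX9*, *SOX12*, *SOX13*, *SNAI1*, *SNAI2*, *ZEB1*, *ZEB2*, *TWIST1* and *VIM*, were chosen by name from 23287 gene symbols, and each was present in the files. RNA was sequenced from cells kept in charcoal-stripped serum and given 10 nM R5020 for 3 h or the vehicle ethanol (EtOH), with 1 library per condition, and PR binding sites were mapped by ChIP-seq in 1 library of cells given 10 nM R5020 for 1 h. The cells for ChIP-seq were also kept in charcoal-stripped serum, per the paper for longer before harvest than those for RNA. All libraries came from this single line. Because each condition has 1 library, no p-value is given and a difference compares these libraries and nothing more.

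SOX proteins are transcription factors that bind DNA through an HMG box. *SOX4* and *SOX12* belong to the SoxC group, *SOX9* to the SoxE group and *SOX13* to the SoxD group, and *SOX9* is known in the mammary gland for its role in luminal progenitor cells. SNAI, ZEB and TWIST proteins are the classical inducers of epithelial-mesenchymal transition (EMT), in which epithelial cells lose E-cadherin and tight junctions and gain mesenchymal traits such as vimentin filaments. SNAI and ZEB proteins are zinc finger factors that bind E-box sequences and repress epithelial genes with the help of corepressors, TWIST1 is a basic helix-loop-helix factor, and *VIM* encodes vimentin itself. The PR binds DNA as a dimer at inverted repeats of the half-site TGTTCT and also at single half-sites.

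Of the 10 genes, *SOX4* and *SOX9* rose by 1.5-fold or more with R5020, that is 2 genes, and 0 fell by as much. *SOX12* and *SOX13* were expressed but changed by less than 1.5-fold, and the 6 EMT genes lay below 1 FPKM in both libraries. FPKM is a fragment count scaled to transcript length and to the mapped fragments of the library, and it was added up over all transcripts of a gene. Log2 fold changes compare R5020 with EtOH after adding 1 to each FPKM, so that changes at low FPKM come out smaller than the plain ratio. A gene was retained where either library reached 1 FPKM, and of 11018 such genes 7.67% passed 1.5-fold upwards in R5020 and 4.14% passed it downwards. The retained genes had a median log2 fold change of 0.01, and the 4 SOX genes, which were the only retained ones of the 10, had a median of 0.12. In such bulk samples a change in the share of cells that express a gene and a change in RNA per cell cannot be told apart.

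The sequences below are those of the PR binding sites on which the account of the loci rests. They are the whole site or its central 300 bases on the plus strand of GRCh37, the assembly of hg19, to which the deposited coordinates refer. Capitals mark the half-site TGTTCT, on either strand, and the core ACANNNTGT, which is the centre of the full palindrome of inverted half-sites with a spacer of 3 bases, so that the motifs can overlap. The site before the start of *SNAI1* is shown because it lies nearest to the start of any of the 10 genes, and the site after *SNAI1* because it holds 2 half-sites. The *SOX9* site is shown as the nearest to that gene, the *TRIB3* site for its score, which is the highest among those within 50 kb of the 10 genes, and the *SOX13* and *ETNK2* sites because they hold the core within these bases. Another *SOX13* site, 16.3 kb from the start, holds the core outside its central 300 bases and is not shown.
SNAI1, before the start, chr20:48598761-48599060: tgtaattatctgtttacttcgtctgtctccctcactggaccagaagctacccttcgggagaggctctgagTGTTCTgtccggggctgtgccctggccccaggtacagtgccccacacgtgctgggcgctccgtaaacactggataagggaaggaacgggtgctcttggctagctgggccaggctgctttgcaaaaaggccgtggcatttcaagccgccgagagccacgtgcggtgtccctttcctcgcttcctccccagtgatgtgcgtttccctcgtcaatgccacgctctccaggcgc
SNAI1, after the end, chr20:48606702-48607001: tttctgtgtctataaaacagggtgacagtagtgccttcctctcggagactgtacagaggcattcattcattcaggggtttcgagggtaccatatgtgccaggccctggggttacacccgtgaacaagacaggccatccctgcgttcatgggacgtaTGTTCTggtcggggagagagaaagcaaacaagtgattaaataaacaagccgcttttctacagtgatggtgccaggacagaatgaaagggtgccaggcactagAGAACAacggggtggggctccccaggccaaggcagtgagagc
SOX9, upstream, chr17:70092280-70092579: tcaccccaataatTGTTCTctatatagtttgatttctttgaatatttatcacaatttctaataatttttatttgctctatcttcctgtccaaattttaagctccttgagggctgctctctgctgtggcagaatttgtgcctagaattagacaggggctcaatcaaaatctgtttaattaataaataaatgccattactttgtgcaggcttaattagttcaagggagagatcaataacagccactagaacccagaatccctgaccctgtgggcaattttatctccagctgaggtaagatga
SOX12, in TRIB3, chr20:347948-348247: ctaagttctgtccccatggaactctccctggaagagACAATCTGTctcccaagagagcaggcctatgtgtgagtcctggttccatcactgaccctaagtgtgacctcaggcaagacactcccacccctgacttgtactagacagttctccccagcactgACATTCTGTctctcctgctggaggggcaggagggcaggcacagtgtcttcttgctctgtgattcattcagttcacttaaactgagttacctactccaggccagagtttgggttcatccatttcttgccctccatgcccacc
SOX13, first of 4 intronic sites, chr1:204048830-204049129: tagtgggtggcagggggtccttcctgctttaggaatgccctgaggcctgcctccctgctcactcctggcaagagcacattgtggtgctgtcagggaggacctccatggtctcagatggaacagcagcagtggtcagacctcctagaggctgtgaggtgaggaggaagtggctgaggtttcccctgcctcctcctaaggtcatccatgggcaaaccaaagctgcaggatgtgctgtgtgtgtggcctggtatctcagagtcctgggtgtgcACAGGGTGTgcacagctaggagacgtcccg
SOX13, in ETNK2, chr1:204119315-204119614: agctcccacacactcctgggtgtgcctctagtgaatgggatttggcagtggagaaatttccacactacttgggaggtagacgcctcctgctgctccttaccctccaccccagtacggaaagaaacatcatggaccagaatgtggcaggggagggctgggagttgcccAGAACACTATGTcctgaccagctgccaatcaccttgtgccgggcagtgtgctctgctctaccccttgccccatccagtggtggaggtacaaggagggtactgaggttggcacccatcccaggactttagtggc

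*SOX4*, a SoxC factor with an intronless gene on chromosome 6 (hg19, 21593972 to 21598849), stood at 12.4 FPKM in EtOH and at 31.4 in R5020. This log2 fold change of 1.27 was above that of 97.8% of the retained genes, and *SOX4* moved from rank 2416 to rank 836 of all gene symbols. The change was the largest of the 4 expressed SOX genes and passed 2-fold as well. The depth behind these values was expressed as the deposited coverage times transcript length over the read length of 50 nt, and *SOX4* corresponded to 5595 reads in EtOH and 13722 in R5020. The genes whose pair of values lay nearest to that of *SOX4* on the log2(FPKM + 1) scale over the 2 libraries were *UGCG* (12.9 and 30.5, distance 0.06), *GNPTAB* (11.6 and 31.6, distance 0.09) and *HIF1A-AS2* (11.9 and 29.9, distance 0.09). No PR binding site lay within 50 kb of *SOX4*, and the nearest one, with a score of 106, lay 207 kb away.

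*SOX9*, a SoxE factor on chromosome 17 (70117161 to 70122560), reached 20.9 FPKM with EtOH and 31.9 with R5020, from 7887 and 11688 reads. The log2 fold change of 0.59 lies at the threshold. With FPKM scaled so that the median gene did not differ between the libraries, its fold was 1.49 and it was no longer counted. By FPKM *SOX9* was the highest of the 10 genes in both libraries. *SOX4* came next to it in R5020 but stood below *SOX13* in EtOH. The FPKM intervals that Cufflinks gave put *SOX9* below *SOX4* in R5020, with an upper bound of 18.8 for *SOX9* and a lower bound of 24.7 for *SOX4*.

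*SOX13*, a SoxD factor on chromosome 1 (204042246 to 204096871), stood at 16.3 FPKM in EtOH and at 11.3 in R5020, from 6343 and 4188 reads. *SOX12*, the other SoxC factor expressed here, on chromosome 20 (306239 to 310867), had 5.90 in EtOH and 4.41 in R5020, from 2467 and 1776 reads. Their log2 fold changes were −0.50 and −0.35, and both stayed within 1.5-fold. Only 5.82% of the retained genes had a lower log2 fold change than *SOX13*, against 11.2% for *SOX12*. The SoxC genes *SOX4* and *SOX12* therefore had log2 fold changes of opposite sign.

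**Figure D1:**
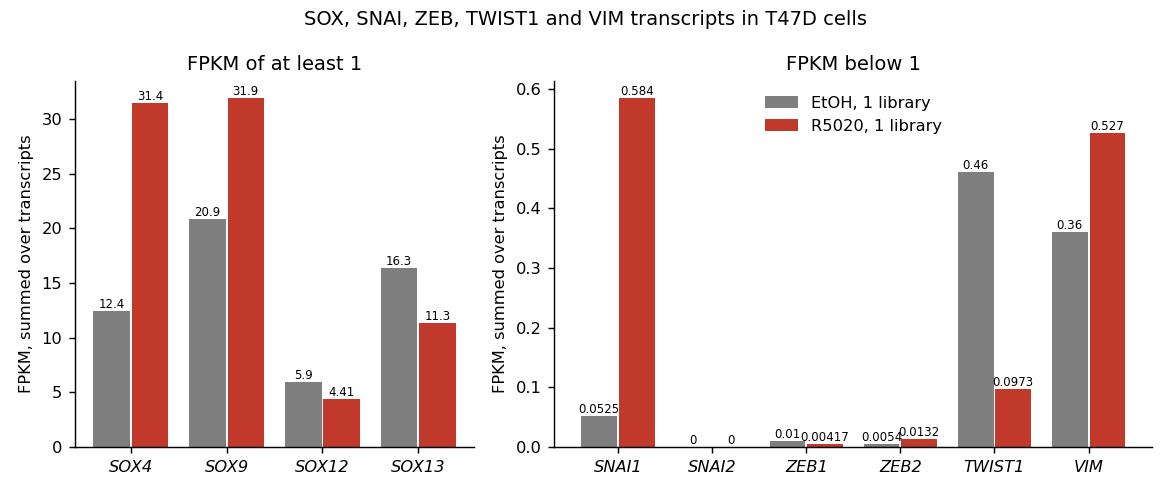
FPKM of the 10 genes in EtOH-treated (grey) and R5020-treated (red) T47D cells, 1 library per bar, summed over the transcripts of each gene; the axes of the panels differ. *SOX4* and *SOX9* were higher in R5020 (31.4 and 31.9), and the 6 genes in the right panel stayed at 0.584 FPKM or below.

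*SNAI1*, a zinc finger repressor of E-cadherin on chromosome 20 (48599513 to 48605420), was at 0.0525 FPKM with EtOH and at 0.584 with R5020. The coverage corresponded to 9 reads in EtOH and 94 in R5020. The ratio of the FPKM values was 11.1, and the log2 fold change was 0.59 on the scale with a pseudocount of 1. Since *SNAI1* did not reach 1 FPKM in either library, it was not counted as changed, and it would have been counted without this filter, at which 3.78% of all gene symbols were at least 1.5-fold higher. The midpoint of the FPKM interval that Cufflinks gave, in place of the FPKM, lowered its log2 fold change to 0.34.

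*TWIST1*, a helix-loop-helix inducer of EMT on chromosome 7 (19155091 to 19157295), showed the opposite order, with 0.460 FPKM in EtOH and 0.0973 in R5020, from 71 and 10 reads. Its log2 fold change was −0.41 with a pseudocount of 1 and −1.51 with a pseudocount of 0.1. *VIM*, the intermediate filament gene of mesenchymal cells on chromosome 10 (17270258 to 17279592), had 0.360 in EtOH and 0.527 in R5020, from 74 and 104 reads, a log2 fold change of 0.17. In EtOH *TWIST1* was the highest of the 6 genes below 1 FPKM, and in R5020 it was *SNAI1*, followed by *VIM*.

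The other EMT factors were at or near 0. *ZEB1* (chromosome 10, 31608101 to 31818742) had 0.0100 FPKM in EtOH and 0.00417 in R5020, all from 1 of its 6 transcripts. *ZEB2* (chromosome 2, 145141942 to 145277958) had 0.00540 and 0.0132, all from 1 of its 3 transcripts. These values corresponded to 3 and 2 reads for *ZEB1* and to 4 and 12 reads for *ZEB2*, and no difference is drawn from them. *SNAI2* (chromosome 8, 49830239 to 49833999), the Slug repressor of basal mammary cells, was listed at 0 in both libraries. The remaining 8 of the 10 genes have 1 transcript each in the files, so that no change of transcript could be seen for them.

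**Figure D2:**
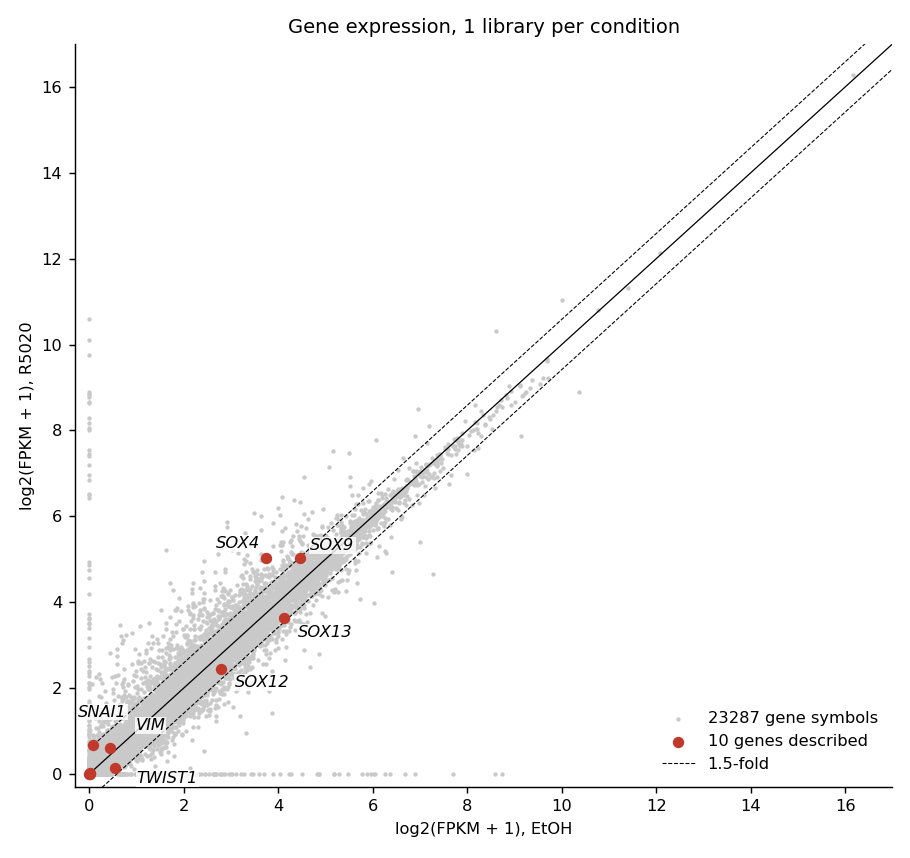
log2(FPKM + 1) of 23287 gene symbols in EtOH-treated (x axis) and R5020-treated cells (y axis), each dot a gene, the 10 genes in red and dashed lines at 1.5-fold. *SOX4* lies well above the upper line, *SOX9* and *SNAI1* on it, and *SOX12* and *SOX13* between the lines below the diagonal.

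The values of these genes carry limits of their own. Of the 9 transcripts of the 10 genes with an FPKM above 0, 5 had an FPKM outside the interval deposited for it in each library. In both libraries these were those of *SOX4*, *SOX9*, *SOX12* and *SOX13*, joined by *TWIST1* in EtOH and by *SNAI1* in R5020. Each of these FPKM values lay above its upper bound, so that no retained gene of the 10 had an FPKM inside its interval. In EtOH *SOX9* had 20.9 against an upper bound of 12.4, and *SOX4* had 12.4 against 11.09. The FPKM itself was used. All 17 transcripts had a status of OK. The luminal identity of the cells showed in *KRT19* (608 in EtOH and 477 in R5020), *EPCAM* (62.2 and 55.6) and *CDH1* (101.8 and 99.2). Of 9 luminal markers, 4 were at least 1.5-fold lower in R5020, against 4.14% over all retained genes. These were *GATA3* (253 and 126), *FOXA1* (64.3 and 14.7), *ESR1* (17.2 and 10.9) and *PGR* (23.7 and 15.3). The 2 that counted as higher, *KRT8* and *KRT18*, were listed at 0 in EtOH, where their estimation had failed. Summed FPKM was 0.639 and 0.576 over 3 leukocyte markers, 0.229 and 0.325 over 3 endothelial markers and 7.94 and 5.13 over 6 fibroblast markers. Most of the fibroblast sum came from *COL1A1* (5.12 and 3.31) and *LUM* (2.54 and 1.66), while *COL1A2* and *COL3A1* were at 0. The basal keratins *KRT5* (0.0102 and 0.232) and *KRT14* (0.00822 and 0.0170) were near 0, and of the other 3 basal or myoepithelial markers *ACTA2* (1.93 and 1.35) and *MYLK* (1.92 and 1.41) passed 1 FPKM and *TP63* (0.143 and 0.121) did not. All libraries came from the single T47D line in culture, so that no other cell type was part of the design and these values describe that culture. The purity of the culture was not tested. Of 5 genes known to respond to progestin or glucocorticoid, 4 were at least 1.5-fold higher in R5020, against 7.67% over all retained genes. They were *FKBP5* (15.9 and 86.6), *TSC22D3* (3.52 and 18.7), *SGK1* (0.0388 and 3.28) and *ZBTB16* (0 and 1.63). *PER1* (0.856 and 1.57) stayed within 1.5-fold only with the pseudocount of 1, at a fold of 1.38, while the plain ratio of its values is above 1.5. The coverage summed over all transcripts corresponded to 35151493 reads in EtOH and 36203604 in R5020. This sum is not the depth of the libraries, since it lacks loci whose estimation failed, such as *KRT8* and *KRT18* in EtOH. The paper gives more uniquely placed reads for EtOH than for R5020, and more for each than this sum.

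PR binding sites were searched within 50 kb of each locus, and 4 of the 10 genes had at least 1, *SOX13* with 10 sites, *SNAI1* with 3, *SOX12* with 2 and *SOX9* with 1. Across all gene symbols 45.6% had a site within this distance, and 52.7% of the retained genes did. The share for the 10 genes thus stands near that of all genes. Among retained genes that were at least 1.5-fold higher in R5020 61.4% had a site, and among those at least 1.5-fold lower 61.0%. Of the genes described, *SOX9* was the only one that was both 1.5-fold changed and within 50 kb of a site, which held for 7.23% of the retained genes.

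The MACS score of a site is the −log10 of its p-value against input DNA times 10, and it ranged from 50 to 1965.17 over the 11181 sites, with a median of 74.5. The 16 sites within 50 kb of these genes had a median score of 76.2, and 2 of them, both near *SOX12*, had a score of at least 100, against 16.3% of all sites. The median was thus near that of all sites, while single sites ranged from a score of 57.1, above 11.0% of all sites, to 394, above 99.2%.

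At *SNAI1*, a site of 433 bp ended 385 bp before the annotated start of the gene, with its midpoint at −602 bp and a score of 83.7. It lies between genes, its nearest protein-coding start is that of *SNAI1*, and its GC content is 62.4%. The half-site TGTTCT occurs in it once. A site with a score of 59.5 lay 1.21 kb after the end of the gene and held 2 half-sites, and a site with a score of 61.7 lay 40.6 kb upstream, in an intron of *RNF114* and 5.86 kb from its start. *RNF114* was at 30.3 FPKM with EtOH and 26.2 with R5020. *SNAI1* was thus the only one of the 10 genes with a site within 1 kb of its start. The share of all genes with such a site was not counted, so that this does not set *SNAI1* apart. Its FPKM was 0.0525 in EtOH and 0.584 in R5020, below 1 in both.

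The 10 sites at *SOX13* are more than most genes have, since 1.41% of all gene symbols and 1.83% of the retained genes had 10 or more. The locus is 54626 bp long, so that the stretch searched was longer than for the other SOX genes. Of these sites, 4 lay in introns of *SOX13*, at 6.73, 7.39, 16.3 and 49.0 kb from its start, with scores of 59.5, 83.5, 79.96 and 57.1. The other 6 lay downstream, 5 of them in *ETNK2*, and these 5 had scores between 64.5 and 97.6. *ETNK2*, a lipid kinase gene, had 3.31 FPKM in EtOH and 3.61 in R5020. The gene with the most sites of the 10 had an FPKM in R5020 below that in EtOH, with a log2 fold change of −0.50.

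The sites linked to *SOX12* were the strongest but lay in other genes. The site with a score of 394, above 99.2% of all sites, was 36.8 kb downstream of *SOX12*, in an intron of *TRIB3* and 4.62 kb from the *TRIB3* start. It spans 880 bp and held the core ACANNNTGT 2 times. The site with a score of 124 lay 26.1 kb downstream, in an intron of *NRSN2* and 6.40 kb from the *TRIB3* start. *TRIB3*, which encodes a pseudokinase of the stress response, had 3.45 FPKM in EtOH and 3.07 in R5020, and *NRSN2* had 8.11 and 7.14. Neither neighbour changed by 1.5-fold.

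At *SOX9*, the site with a score of 61.6 had its midpoint 24.7 kb upstream of the start, in introns of the long noncoding RNA genes *SOX9-AS1* and *LINC02097*. No protein-coding start was nearer than that of *SOX9*. The site has a GC content of 40.9% and holds 2 half-sites, 1 of which lies within the bases printed above. A second site, with a score of 90.5, had its midpoint 64.6 kb downstream of the start, beyond the 50 kb.

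**Figure D3:**
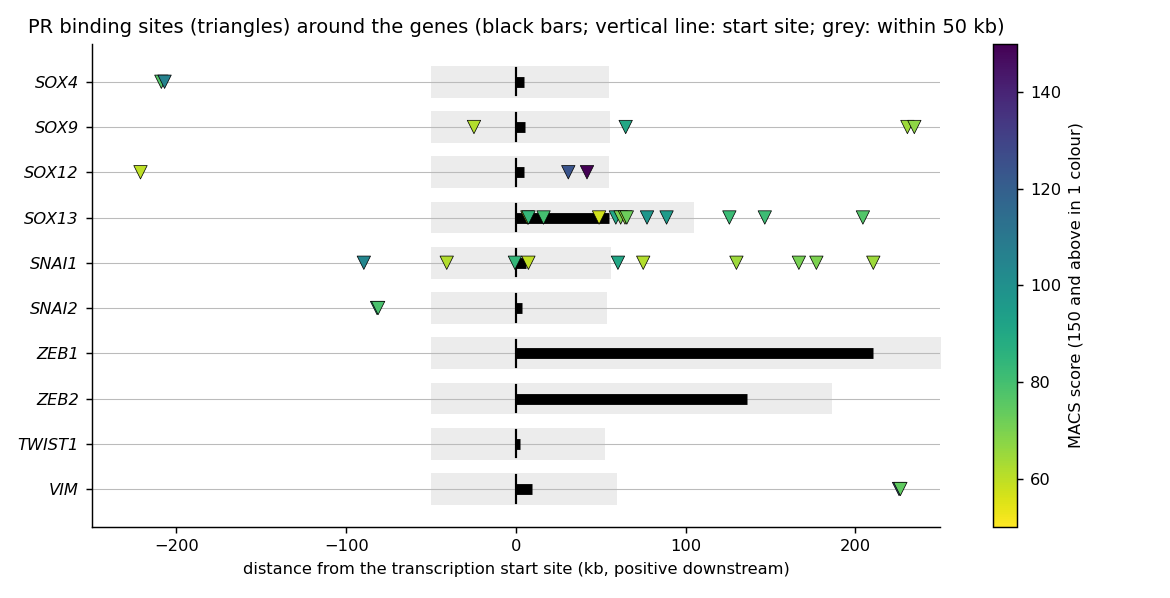
PR binding sites (triangles, coloured by MACS score) up to 250 kb on each side of the transcription start sites of the 10 genes; x axis, distance in kb along the direction of transcription; black bars, gene bodies; grey, within 50 kb of the locus. *SOX13* has 10 sites in the grey zone and *SNAI1* 1 at its start, while *SOX4*, *ZEB1*, *ZEB2*, *TWIST1*, *SNAI2* and *VIM* have 0.

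The 6 genes without a site within 50 kb lay at very different distances from the nearest one. For *SNAI2* it was 81.0 kb, for *SOX4* 207 kb and for *VIM* 216 kb. For *ZEB1* it was 950 kb, for *TWIST1* 1212 kb and for *ZEB2* 2354 kb. These 6 include the genes at or near 0 FPKM, *SNAI2*, *ZEB1* and *ZEB2*, and also *SOX4*, the gene with the largest change. Across all gene symbols only 45.6% had a site within 50 kb, so that lacking a site does not set these genes apart.

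Site density differed between chromosomes, from 0.560 to 11.6 sites per Mb, with 3.68 over all 23. *SOX9* lies on the densest, chromosome 17, with 11.6, and *SNAI1* and *SOX12* on chromosome 20, with 9.71. *SOX4* lies on chromosome 6, with 1.58, and *ZEB2* on chromosome 2, with 1.25. Of the retained genes 73.2% had a site within 50 kb on chromosome 17 and 72.3% on chromosome 20, but 28.3% on chromosome 6 and 29.3% on chromosome 2. *SOX13* (chromosome 1, 3.49 sites per Mb), *TWIST1* (chromosome 7, 3.90), *ZEB1* and *VIM* (chromosome 10, 4.19) and *SNAI2* (chromosome 8, 4.71) lie on chromosomes nearer to the mean. The part of this density in which genes have a site was not tested.

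**Figure D4:**
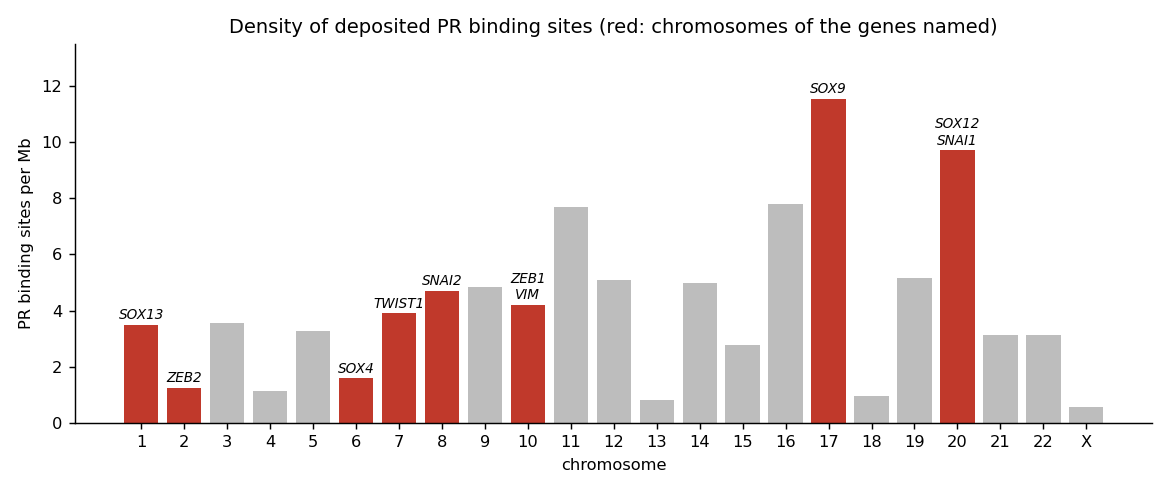
PR binding sites per Mb of each chromosome (y axis), with the chromosomes of the 10 genes in red. Those of *SOX9* (11.6) and of *SNAI1* and *SOX12* (9.71) stand above the mean of 3.68, and those of *SOX4* (1.58) and *ZEB2* (1.25) below it.

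The full palindrome was present in 0 of the 16 sites near these genes, and in 3 of all 11178 sites that could be read. The core ACANNNTGT was present in 4 of the 16, 3 of them at *SOX13* and 1 at *SOX12*, against 11.6% of all sites and 11.2% of windows of equal length lying 5 kb to each side. The half-site was present in 8 of the 16, against 25.2% of all sites and 27.2% of the windows. Over all sites, the core was more frequent than in the windows where the score was at least 100, with 19.6% against 12.9%, and not where it was below 100, with 10.1% against 10.9%. Of the 16 sites 14 belong to the class below 100. A match is a description of the letters and does not show where the PR bound.

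The wider EMT programme was described with lists of genes, by the same rule, and each count below is to be read against the 7.67% higher and 4.14% lower over all retained genes. Of 15 other SOX genes only *SOX2* was retained, with 3.41 FPKM in EtOH and 0.105 in R5020 (log2 fold change −2.00), and 8 were listed at 0 in both libraries. *SOX2*, a SoxB factor of stem cells, lies inside the long noncoding gene *SOX2-OT*, which had 0.0380 and 0.0160. Of 10 other factors that induce EMT 5 were retained, 1 was higher and 0 were lower. The one that was higher was *ZNF703*, a luminal oncogene and repressor, from 4.05 to 19.1 (1.99).

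All 12 factors that keep the epithelial state were retained, and 2 were higher and 6 lower in R5020 (7.67% and 4.14% over all retained genes), with a median log2 fold change of −0.76. *FOXA1* and *GATA3* are among these 6 and also among the lower luminal markers above, so that the 2 counts are not independent. The largest changes were those of *GRHL2*, a grainyhead factor that represses *ZEB1*, from 14.8 to 72.3 (2.21), *FOXA1*, the luminal pioneer factor, from 64.3 to 14.7 (−2.05), *ELF3* from 3.52 to 0.722 (−1.39) and *GRHL3* from 2.13 to 0.222 (−1.36). Of 14 epithelial adhesion genes that SNAI and ZEB factors are known to repress, 0 were higher, 3 were lower and 11 stayed within 1.5-fold, against the same 7.67% and 4.14%, with a median of −0.12. The 3 were claudins of the tight junction, *CLDN4* from 52.0 to 15.9 (−1.65), *CLDN3* from 30.8 to 11.9 (−1.30) and *CLDN1* from 76.0 to 35.7 (−1.07). *CDH1*, which encodes E-cadherin and is named here with its value known, had a log2 fold change of −0.04. Of 17 mesenchymal genes 6 were retained, of which 1 was higher and 0 were lower, against 7.67% and 4.14%, with a median of −0.28. The one that was higher was *CD44*, a hyaluronan receptor, from 3.58 to 11.99, and the other 5 stayed within 1.5-fold, with log2 fold changes between −0.51 (*COL1A1*) and −0.05 (*FN1*), genes named after their values were seen.

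**Figure D5:**
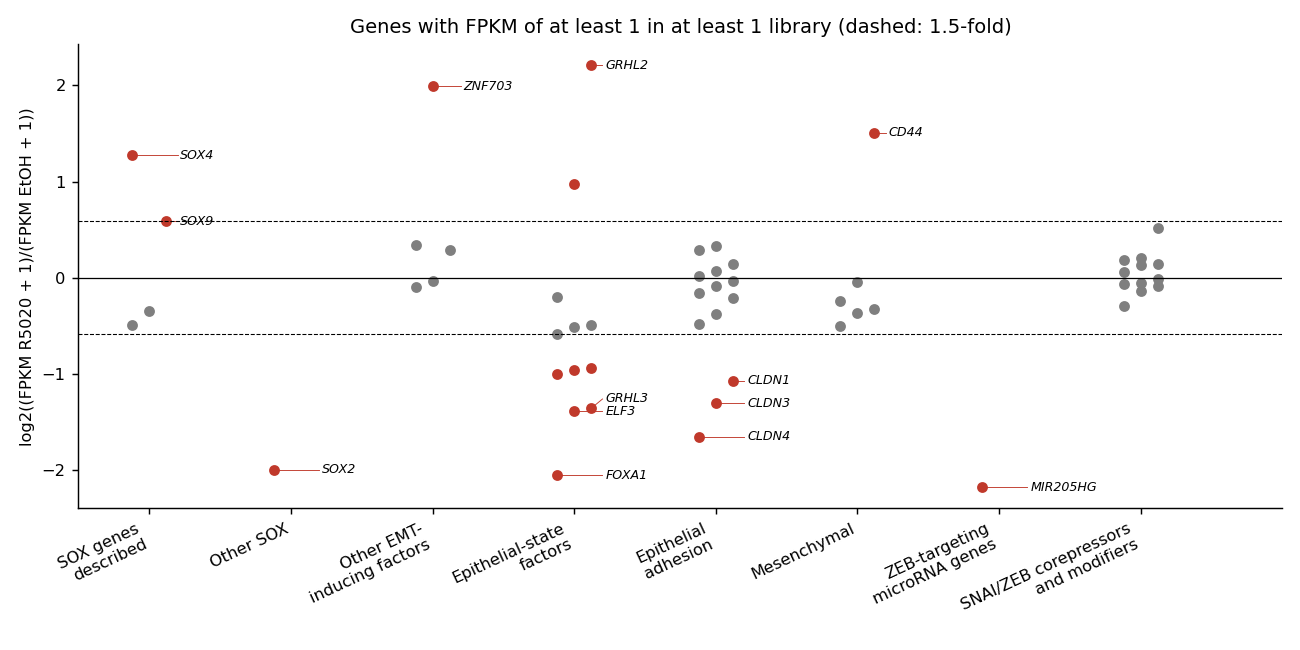
log2 fold change of R5020 over EtOH (pseudocount 1) for the retained SOX genes and for 7 gene lists, each dot a gene, red at 1.5-fold or more and grey below; of the red dots of a list at most the 4 largest are named. *SOX4* (1.27) rose less than *GRHL2* (2.21) or *ZNF703* (1.99), and the dots of the epithelial adhesion list other than *CLDN1*, *CLDN3* and *CLDN4* lie between −0.48 (*TJP3*) and 0.33 (*OCLN*).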

How the data were processed

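The authors sequenced 50-bp paired-end libraries of poly(A)+ RNA, placed the reads on hg19 with TopHat, kept those with a single position and deposited FPKM values from Cufflinks for each of 41138 RefSeq transcripts. The deposited FPKM is divided by length and library size, so count tests were not applied. The coverage signal, deposited beside it, served only to express the depth. For ChIP-seq the authors aligned reads with Bowtie (version 1.1.2 per the submitters' notes), called sites with MACS against input DNA and deposited a score for each. The input library was not analysed here.

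Transcripts were summed by gene symbol. A pseudocount of 1, a minimum of 1 FPKM in at least 1 library and a threshold of 1.5-fold were used. Sites were linked by the gap between their edge and the extent of any transcript, up to 50 kb. Positions were annotated at the site midpoint with GENCODE 44 on GRCh37, and 3 sites on unplaced contigs were not read for motifs. The 10 genes and all gene lists were chosen with earlier results of these data known. From each list, the retained genes past 1.5-fold were named, at most the 4 largest. The microRNA and corepressor lists are in the closing section. Alternatives were other pseudocounts, filters, thresholds, distances and scores, rescaling and the FPKM interval. Python 3.11.15, pandas 2.3.3 and numpy 2.4.6 were used.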

Additional observations from a re-analysis of the deposited data

How the results depend on the processing

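With 1 library per condition no replicate could be left out, and depth limits *SNAI1*, *TWIST1*, *ZEB1* and *ZEB2* most. No paired analysis was possible because each condition has 1 library. The number of genes of the 10 that were at least 1.5-fold higher, 2, was 1 after rescaling to a median log2 ratio of 0, 1 with the midpoint of the FPKM interval, which was added after seeing the data, and 1 at 2-fold. In the first of these, and in the second, *SOX9* was lost (fold 1.49 and 1.48), and *SOX4* was kept in all, with log2 fold changes between 1.21 and 1.34. Over all genes the higher ones numbered 378 at 2-fold, and the lower ones, 456, numbered 787 with a pseudocount of 0.1, 299 with FPKM of at least 1 in both libraries and 144 at 2-fold. The number of the 10 genes with a PR binding site, 4, was 2 within 10 kb and 1 with a score of at least 100, and the share of all genes was 27.4% and 14.2%, respectively. The number both changed and with a site, 1, was 0 within 10 kb and 0 at that score. With the core in place of the full palindrome 4 sites held the motif. Single genes gave 49 log2 fold changes under the alternatives, and some of these could not differ from the main value. Keeping only the most abundant transcript of a gene changed none of the 10, because no gene had more than 1 transcript above 0. *SNAI2* was at 0 under every setting. Of the 49, 42 stayed on the same side of 1.5-fold, a count that includes those that could not move. Of those past it, 0 changed sign. Those of *SOX9* and *SNAI1* fell under it, and those of *TWIST1*, *ZEB1* and *ZEB2* passed it with a smaller or no pseudocount. The cause of these shifts was not tested.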

Other observations

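Of 7 genes of the microRNAs known to act on *ZEB1* and *ZEB2*, 6 were listed at 0 in both libraries, which were made from poly(A)+ RNA. The exception was *MIR205HG*, the host gene of miR-205, which fell from 24.5 FPKM with EtOH to 4.63 with R5020 (log2 fold change −2.18). *MIR205HG* had no PR binding site within 50 kb, and neither had *MIR205*, *MIR200C* or *MIR141*. *MIR200A*, *MIR200B* and *MIR429* had 7 sites each within this distance. *ZEB1* and *ZEB2* themselves stayed at 0.0132 FPKM or below.

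All 12 corepressors and modifiers that SNAI and ZEB factors use were retained, and 0 of them were 1.5-fold changed, against 7.67% higher and 4.14% lower over all retained genes, so that a count of 0 among 12 does not set the list apart. Their median log2 fold change was 0.02. The largest was that of *RCOR1*, the CoREST scaffold, from 14.2 to 20.8 FPKM (0.52), which was named after its value was seen.

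The antisense neighbour of *ZEB1*, *ZEB1-AS1*, had 1.03 FPKM in EtOH and 1.22 in R5020, more than *ZEB1* itself. Whether the counting used strand is not given in the sources used here.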
